A study of Mus musculus with 31 samples.

Results

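The ubiquitin-conjugating (E2) enzymes were examined as the protein-coding mouse genes whose symbol begins with Ube2 followed by a letter and whose Entrez identifier is listed in the count tables of both ribosome-protected fragments (RPF) and total RNA. The rule found 37 genes of the 20704 listed for RPF and the 24593 listed for total RNA, and used no measured value. Of these, 32 passed the filter on low counts and were tested among 9457 genes for RPF, 11708 genes for total RNA and 9457 genes for translational efficiency (TE), the ratio of RPF to total RNA. The remaining 5, Ube2d2b, Ube2dnl1, Ube2dnl2, Ube2ql1 and Ube2u, had next to no reads. One of the 37, Ube2cbp (also called Ube3d), encodes a protein named for binding Ube2c and acts as a ubiquitin ligase, so it is a member by name and not an E2.

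An E1 enzyme activates ubiquitin, an E2 accepts it on a cysteine, and a ligase (E3) brings the loaded E2 to a substrate. E2s differ in what they build: some place the first ubiquitin, others extend chains of a given linkage, and a few carry a ubiquitin-like protein instead, Ube2m and Ube2f carrying NEDD8 and Ube2l6 carrying ISG15. The proteasome degrades many of the tagged proteins, and its inhibition by bortezomib leaves ubiquitin conjugates undegraded.

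Most E2s hold a histidine-proline-asparagine motif shortly before the active cysteine. In the RefSeq coding sequences, 20 of the 37 members had that motif with a cysteine 10 residues after its first position, and 17 did not. Those without it included the large or divergent members Ube2o, Ube2q1, Ube2q2, Ube2j1, Ube2j2 and Ube2z, the cysteine-less partner proteins Ube2v1 and Ube2v2, and Ube2cbp. The windows below are from the mm10 build (GRCm38.p6, RefSeq), run 5′ to 3′ over 36 coding bases from the histidine codon, and carry the cysteine codon in capitals. Ube2t, Ube2l6 and Ube2r2 are shown because they differed by treatment or genotype, Ube2c and Ube2s because they serve the anaphase-promoting complex (APC/C), and Ube2d3, Ube2a and Ube2b as members of families of near-identical proteins.
Ube2t, chr1:134971296-134971331, plus strand: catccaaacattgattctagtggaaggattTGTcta
Ube2l6, chr2:84806439-84806474, plus strand: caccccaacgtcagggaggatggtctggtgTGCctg
Ube2r2, chr4:41174110-41183262, plus strand, across an intron: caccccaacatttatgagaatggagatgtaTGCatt
Ube2c, chr2:164771947-164771982, plus strand: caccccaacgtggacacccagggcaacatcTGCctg
Ube2s, chr7:4810476-4810511, minus strand: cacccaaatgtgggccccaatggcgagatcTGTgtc
Ube2d3, chr3:135459999-135460034, plus strand: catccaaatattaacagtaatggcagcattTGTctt
Ube2a, chrX:36881737-36882624, plus strand, across an intron: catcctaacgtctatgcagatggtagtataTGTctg
Ube2b, chr11:51988675-51991403, minus strand, across an intron: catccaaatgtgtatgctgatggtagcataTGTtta

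Over their whole length the proteins encoded by Ube2d2a and Ube2d3 were 97.3% identical, those of Ube2a and Ube2b 95.4%, and those of Ube2q1 and Ube2q2 68.5%. Many members also have processed copies elsewhere in the genome: for 13 of the 32 tested members over 50% of the 28-base words of the coding sequence had a further exact copy in mm10, and for 5, among them Ube2d2a, Ube2l3, Ube2n and Ube2v2, every word did. The column names of the tables mark uniquely placed reads, so counts of these genes rest on how reads with several matching places were handled and are uncertain to that extent.

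The cells were a mouse skin squamous cell carcinoma line driven by oncogenic Hras G12V. Its TgfbrII alleles are labelled fl/fl, while the study's list of cell lines gives S51 and S51A as deleted for TgfbrII (D/D). The endogenous Eif2s1 gene, which encodes eIF2α, had been knocked out by frameshift edits with CRISPR-Cas9. A myc-tagged transgene under the PGK promoter supplied eIF2α instead. The transgene was wild type (S51, competent for the integrated stress response) or carried alanine at the phosphorylated serine (S51A, unable to mount that response through eIF2α). Both genotypes were single-cell clones, 2 per genotype pooled in the study, and the clone behind each library is not named in the labels, so genotype and clone cannot be told apart. Cells received vehicle (DMSO) or bortezomib at 100 nM for 4.5 h by the labels. For RPF, S51 vehicle had 3 libraries and every other group 4; each group had 4 libraries of total RNA. According to the series' own note, S51 bortezomib and S51A vehicle samples had their titles exchanged, and the table columns were assigned as the note states.

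Library totals ran from 1038826 to 4902237 counts for RPF and from 18758668 to 22994713 for total RNA, and the E2 members took 0.316% to 0.393% of RPF counts and 0.382% to 0.425% of total RNA counts. Values are given as CPM, counts scaled to library size with TMM factors, that is as shares of a library: fewer cells with a transcript and less transcript per cell cannot be told apart. Keratinocyte markers were high (Krt5 at 11765 to 18108 CPM in RPF), and the leukocyte, fibroblast and endothelial genes Ptprc, Cd3e, Adgre1, Col1a1, Col1a2 and Cdh5 were at or near 0. Csf1r, Pdgfra and the endothelial Kdr were present at low levels, up to 5.72, 9.34 and 8.61 CPM in RPF. In total RNA under vehicle and bortezomib, means of Csf1r were 0.286 and 0.381 CPM in S51 and 1.58 and 2.39 CPM in S51A, of Pdgfra 3.08 and 3.42 CPM against 5.61 and 5.12 CPM, and of Kdr 3.75 and 3.01 CPM against 1.36 and 1.63 CPM. Their part in the genotype differences below was not tested. RPF of Eif2s1 itself averaged 138 CPM in S51 vehicle, 170 CPM in S51 bortezomib, 231 CPM in S51A vehicle and 208 CPM in S51A bortezomib, and its counts do not show which allele was read.

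One RPF library, S51 vehicle replicate 2, stood apart for these genes and over all genes tested. Its correlation of log CPM with replicate 3, 0.946, was the lowest of the 21 RPF pairs within a group (median 0.981). S51 vehicle replicate 2 was below both other S51 vehicle libraries in 24 of the 32 members (75.0%, against 44.2% of all genes tested) and above both in 7 (21.9%, against 43.0%). It was the lowest of all 15 RPF libraries in 18 members (56.2%, against 23.8% of all genes) and the highest in 4 (12.5%, against 21.5%), namely Ube2c, Ube2s, Ube2q1 and Ube2cbp. The median log2 ratio of this library to the mean of its group's others was −0.52 over the members and −0.01 over all genes. Ube2v2 had 79.4, 29.0 and 81.1 CPM in replicates 1, 2 and 3, Ube2n 250, 126 and 268 CPM, and Ube2d3 226, 128 and 250 CPM. Replicate 2 was thus the low library for these 3 genes, while Ube2cbp was high in it, at 12, 20.8 and 13.9 CPM. In S51 vehicle total RNA, the 24 members low in that RPF library had a median log2 ratio of replicate 2 to the mean of the other 3 of −0.02; Ube2v2 was at 166 CPM beside 163, 168 and 171 CPM. The RPF counts of members and the calls against S51 vehicle are given below with and without this library; the cause of its difference was not tested.

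**Figure D1:**
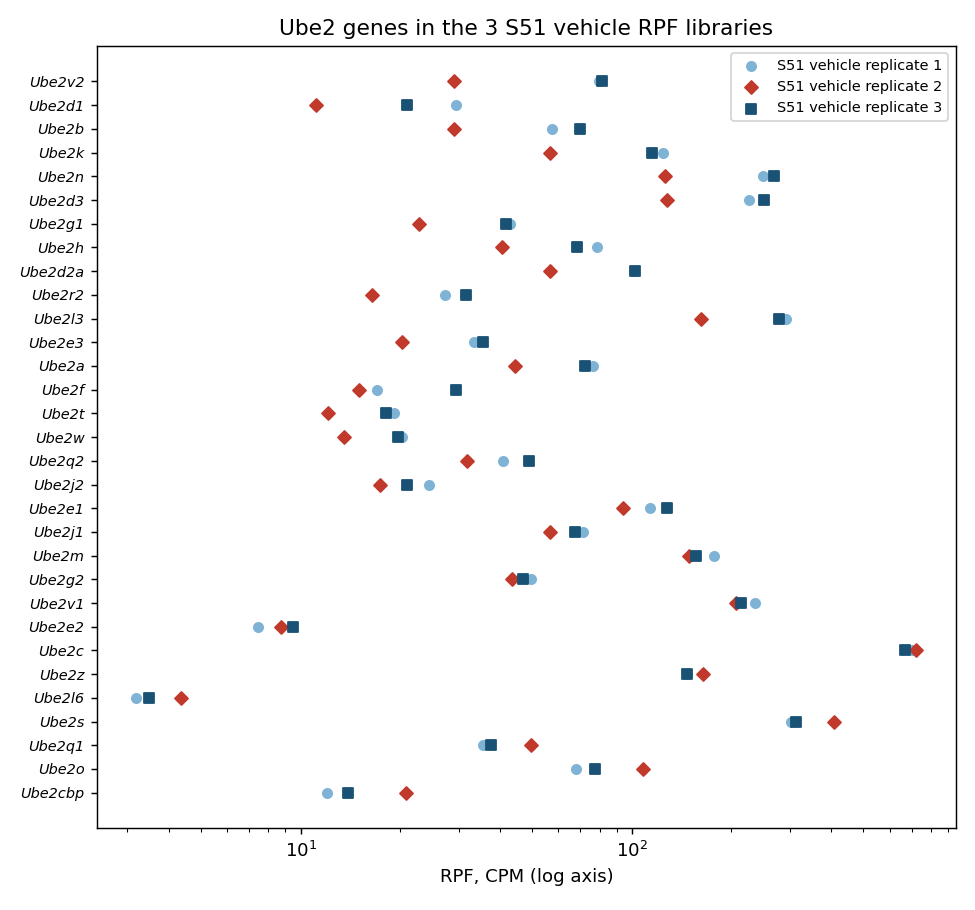
RPF level of each tested E2 member in the 3 S51 vehicle libraries, in CPM on a log axis, with 1 row for each of 31 members. Over all tested members, replicate 2 was below both other libraries in 24 of the 32 members and above both in 7.

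Ribosome occupancy differed widely between members. Per kilobase of coding sequence, as the mean of the 4 group means, RPF was highest for Ube2c, which starts ubiquitin chains for the APC/C in mitosis, at 1202 CPM per kb. Other high members were Ube2l3, the E2 of many HECT and RBR ligases, at 599 CPM per kb, the widely used initiator Ube2d3 at 567, the K63-chain enzyme Ube2n at 529, the APC/C chain-elongating Ube2s at 436 and Ube2v1, the inactive partner of Ube2n, at 425. At the low end were Ube2t at 26.4, Ube2l6 at 14, Ube2e2 at 11.7 and Ube2cbp at 8.88 CPM per kb. In all, 17 members were over 100 CPM per kb and 15 under it. These levels divide by the full coding length, while RPF counts leave out its first and last codons. Levels of short members are understated most by this. Close places in the order and members near 100 CPM per kb could therefore shift. Further exact copies in mm10 covered 100% of the 28-base words of Ube2l3 and Ube2n, 95.7% for Ube2s, 91.5% for Ube2v1 and 81.3% for Ube2d3. The share was 28.1% for Ube2c, 2.46% for Ube2e2, 1.76% for Ube2cbp, 1.70% for Ube2t and 0.92% for Ube2l6. Levels are thus not equally certain across members, and the effect of read placement on the order was not tested. Library ranges of neighbours in this order overlapped in 30 of 31 pairs; the exception was Ube2c against Ube2l3, where the lowest Ube2c library lay above the highest of Ube2l3.

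The members that did not pass the filter were Ube2d2b, with 0 RPF counts and at most 3 total RNA counts in any library, Ube2dnl1 and Ube2dnl2 with 0 of either, Ube2ql1 with 1 RPF and 2 total RNA counts over all libraries, and Ube2u with 0 and 1. They are not counted below.

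**Figure D2:**
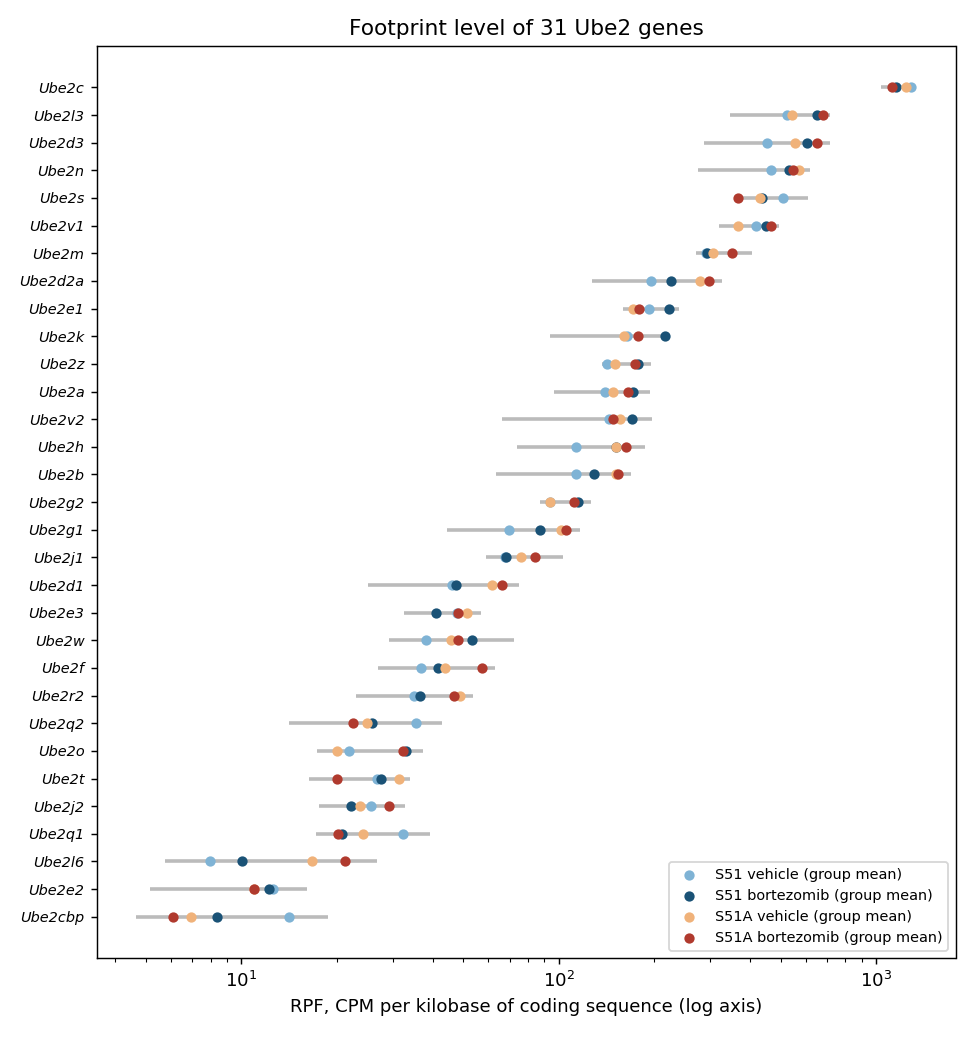
RPF per kilobase of coding sequence for 31 of the 32 tested members, in CPM per kb on a log axis, with a point per group mean and a line from the lowest to the highest of the 15 libraries. Ube2c stood highest at 1202 CPM per kb and Ube2cbp lowest at 8.88.

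The first comparison asks which E2 genes held a larger or smaller share of RPF when the proteasome was inhibited. Such a share also carries changes of the transcript. The study reported lower protein synthesis in S51 cells under bortezomib, which shares of a library do not show. In S51 cells 5 of 32 members passed in RPF (adjusted p under 0.05, edgeR's quasi-likelihood F test, Benjamini-Hochberg adjusted over all genes tested), 3 higher and 2 lower under bortezomib, a smaller share than the 30.8% of all genes (14.8% higher, 16% lower). Ube2o, Ube2d3 and Ube2z rose, and Ube2q1 and Ube2cbp fell. With a fold change over 1.5 required as well, 3 members passed, against 18.6% of genes (1 without S51 vehicle replicate 2, against 16.2%). In S51A cells 3 passed, 2 higher (Ube2o and Ube2v1) and 1 lower (Ube2t), where 20.6% of all genes did (9.25% higher, 11.4% lower). At a fold over 1.5 these were 2, against 10.9%. The median log2 change of RPF over the 32 members was 0.13 in S51 and 0.09 in S51A, and over all genes 0.00 and −0.01. Without S51 vehicle replicate 2 the S51 median was −0.05, and 5 members passed, 2 higher and 3 lower. Of all genes 30.1% then did (15% higher, 15.1% lower). In S51A 8 passed in that fit, 6 higher and 2 lower, against 30.6% of all genes (14.5% higher, 16.1% lower). The S51A libraries stayed the same, but their scaling and spread are estimated with all libraries. The S51 count was 9 without vehicle replicate 1 and 3 without bortezomib replicate 2 or 3. The S51A count was 5 without S51 vehicle replicate 3. Shares of all genes are not given for those fits, and nothing is read from their counts.

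In total RNA, which was sequenced more deeply, 17 of 32 members passed in S51 (10 higher, 7 lower) where 59.8% of all genes did (29.7% higher, 30.2% lower). In S51A 20 passed (14 higher, 6 lower), against 56.4% (27.5% higher, 28.9% lower). Nearly all of these changes were small: at a fold over 1.5 there was 1 member in S51, against 15.3% of genes, and 2 in S51A, against 13.1%. Directions of the small changes rested on the scaling. Scaled by library sizes only, without TMM, the median of all genes shifted from −0.01 to −0.16 in S51 and from −0.01 to −0.13 in S51A. The members then split into 2 higher and 18 lower in S51 and 6 higher and 11 lower in S51A. All genes shifted likewise: of 11708 tested, 1957 were called higher and 5573 lower in S51. In S51A these were 1923 and 5012. Of the 10 members called higher in S51, 2 (Ube2o and Ube2g2) were still called higher under that scaling. Of the 14 in S51A, 6 were (Ube2d3, Ube2g2, Ube2l3, Ube2l6, Ube2o and Ube2v1).

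**Figure D3:**
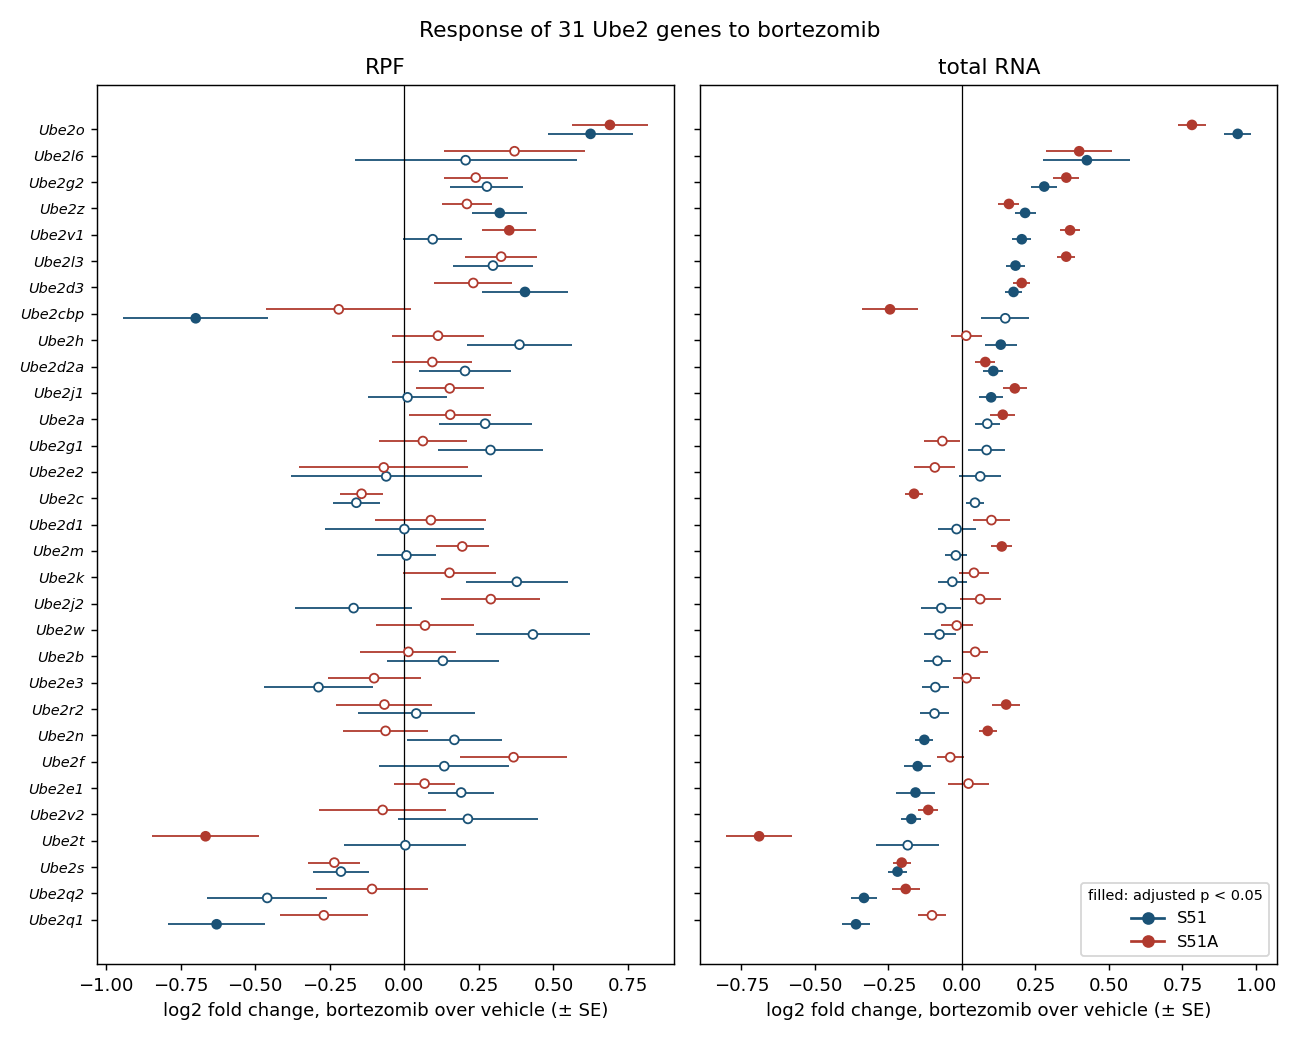
Log2 fold change of RPF and of total RNA under bortezomib for 31 of the 32 tested members, with the standard error, for S51 and S51A; filled points have an adjusted p under 0.05. Ube2o was highest in both genotypes and both kinds of library.

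Ube2o, a large enzyme that acts as E2 and E3 in one chain and tags unassembled proteins, rose most. Its RPF was 68.0, 108 and 77.7 CPM in S51 vehicle and 108, 125, 144 and 134 CPM in S51 bortezomib. In S51A it was 84.1, 73.7, 66.8 and 84.2 CPM under vehicle and 124, 125, 109 and 140 CPM under bortezomib. The S51A groups did not overlap, and in S51 only vehicle replicate 2 reached the lowest bortezomib library. The log2 change in RPF was 0.62 (SE 0.14, adjusted p = 0.00213) in S51, 0.82 (adjusted p = 5.82e-07) without that library, and 0.69 (SE 0.13, adjusted p = 0.000449) in S51A. Total RNA of Ube2o went from 35.5, 34.0, 35.3 and 34.9 CPM to 69.4, 66.1, 68.3 and 63.8 CPM in S51, and from 32.2, 34.6, 31.9 and 36.3 CPM to 59.8, 57.9, 57.5 and 57.1 CPM in S51A. The groups were far apart in both genotypes, with log2 changes of 0.94 (SE 0.05, adjusted p = 1.12e-14) and 0.78 (SE 0.05, adjusted p = 6.12e-13). Ube2o was called in RPF and total RNA in both genotypes whichever library was left out.

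Ube2q1, one of the long E2s with an N-terminal extension, fell in S51. Its RPF was 35.4, 49.8 and 37.6 CPM under vehicle and 21.8, 28.7, 23.8 and 30.8 CPM under bortezomib, with no overlap, a log2 change of −0.63 (SE 0.16, adjusted p = 0.00565) and −0.49 (adjusted p = 0.021) without replicate 2. In S51A the values were 27.1, 33.2, 32.8 and 29.8 CPM and 26.1, 30.2, 23.4 and 22.8 CPM, and the groups overlapped. Total RNA of Ube2q1 went from 68.4 to 77.8 CPM in S51 vehicle to 54.5 to 58.8 CPM in S51 bortezomib (log2 change −0.36, adjusted p = 5.01e-07), and changed by −0.10 (adjusted p = 0.0722) in S51A; these responses differed by 0.26 (adjusted p = 0.00728).

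Ube2t, which places ubiquitin on FANCD2 in the Fanconi anaemia pathway of crosslink repair, fell in S51A. Its RPF was 15.4, 19.9, 20.7 and 20.9 CPM under vehicle and 12.2, 15.1, 12 and 10.1 CPM under bortezomib, a log2 change of −0.67 (SE 0.18, adjusted p = 0.0106). In S51 it was 19.1, 12.1 and 18.2 CPM and 14.6, 18.2, 15.5 and 19.6 CPM, with overlapping groups. Total RNA of Ube2t in S51A fell from 7.89, 7.98, 9.28 and 8.15 CPM to 4.02, 5.37, 5.19 and 6.01 CPM (log2 change −0.69, SE 0.11, adjusted p = 1.07e-05). In S51 it was 7.15, 8.82, 7.02 and 7.41 CPM and 5.95, 6.94, 6.90 and 6.96 CPM (−0.18, adjusted p = 0.146). The responses differed in total RNA by −0.51 (SE 0.16, adjusted p = 0.0215), or adjusted p = 0.0529 without S51A bortezomib replicate 1; the RPF difference, −0.67, did not pass (adjusted p = 0.22), nor did it without S51 vehicle replicate 2 (−0.53, adjusted p = 0.315).

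Ube2cbp, the ligase that binds Ube2c, fell in S51 RPF from 12, 20.8 and 13.9 CPM to 10.2, 7.65, 8.70 and 10.6 CPM. The log2 change was −0.70 (SE 0.24, adjusted p = 0.0333). These values rest on few reads, with 372 RPF counts over all libraries and at most 56 in any. Without replicate 2, its highest library, the change was −0.48 and did not pass (adjusted p = 0.167); the call was also lost without S51 bortezomib replicate 2 or 3. Total RNA did not move down with it in S51, with 8.30 to 9.38 CPM under vehicle and 9.30 to 10.4 CPM under bortezomib. In S51A total RNA fell by 0.24 on the log2 scale (adjusted p = 0.0328), and the 2 responses differed by −0.39 (adjusted p = 0.027); each of these calls was kept with 12 of the 16 total RNA libraries left out in turn.

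Among the other members, Ube2d3 and Ube2z, which is charged with ubiquitin by Uba6, rose in S51 RPF by 0.40 (adjusted p = 0.0388) and 0.32 (adjusted p = 0.0113). Without replicate 2 the values were 0.17 (adjusted p = 0.126) for Ube2d3, no longer called, and 0.37 (adjusted p = 0.0014) for Ube2z. The Ube2d3 call was also lost without any 1 of the S51 bortezomib libraries, and that of Ube2z without S51 vehicle replicate 3. Ube2v1 rose in S51A RPF, from 167 to 220 CPM under vehicle to 230 to 258 CPM under bortezomib (log2 change 0.35, adjusted p = 0.0073). Its catalytic partner Ube2n had RPF group means of 262 and 251 CPM in the same libraries and was not called. In total RNA, Ube2v1 rose by 0.20 in S51 (adjusted p = 9.55e-06) and 0.37 in S51A (adjusted p = 1.24e-09), Ube2l3 by 0.18 (adjusted p = 1.73e-05) and 0.35 (adjusted p = 6.97e-10), and Ube2g2, an E2 of endoplasmic-reticulum-associated degradation (ERAD), by 0.28 (adjusted p = 6.65e-06) and 0.36 (adjusted p = 2.95e-07). Scaled by library sizes only, the S51 values of Ube2v1 (0.05, adjusted p = 0.201) and Ube2l3 (0.03, adjusted p = 0.427) did not pass. Ube2s fell by 0.22 (adjusted p = 1.26e-06) and 0.20 (adjusted p = 4.2e-06) on the same scale.

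**Figure D4:**
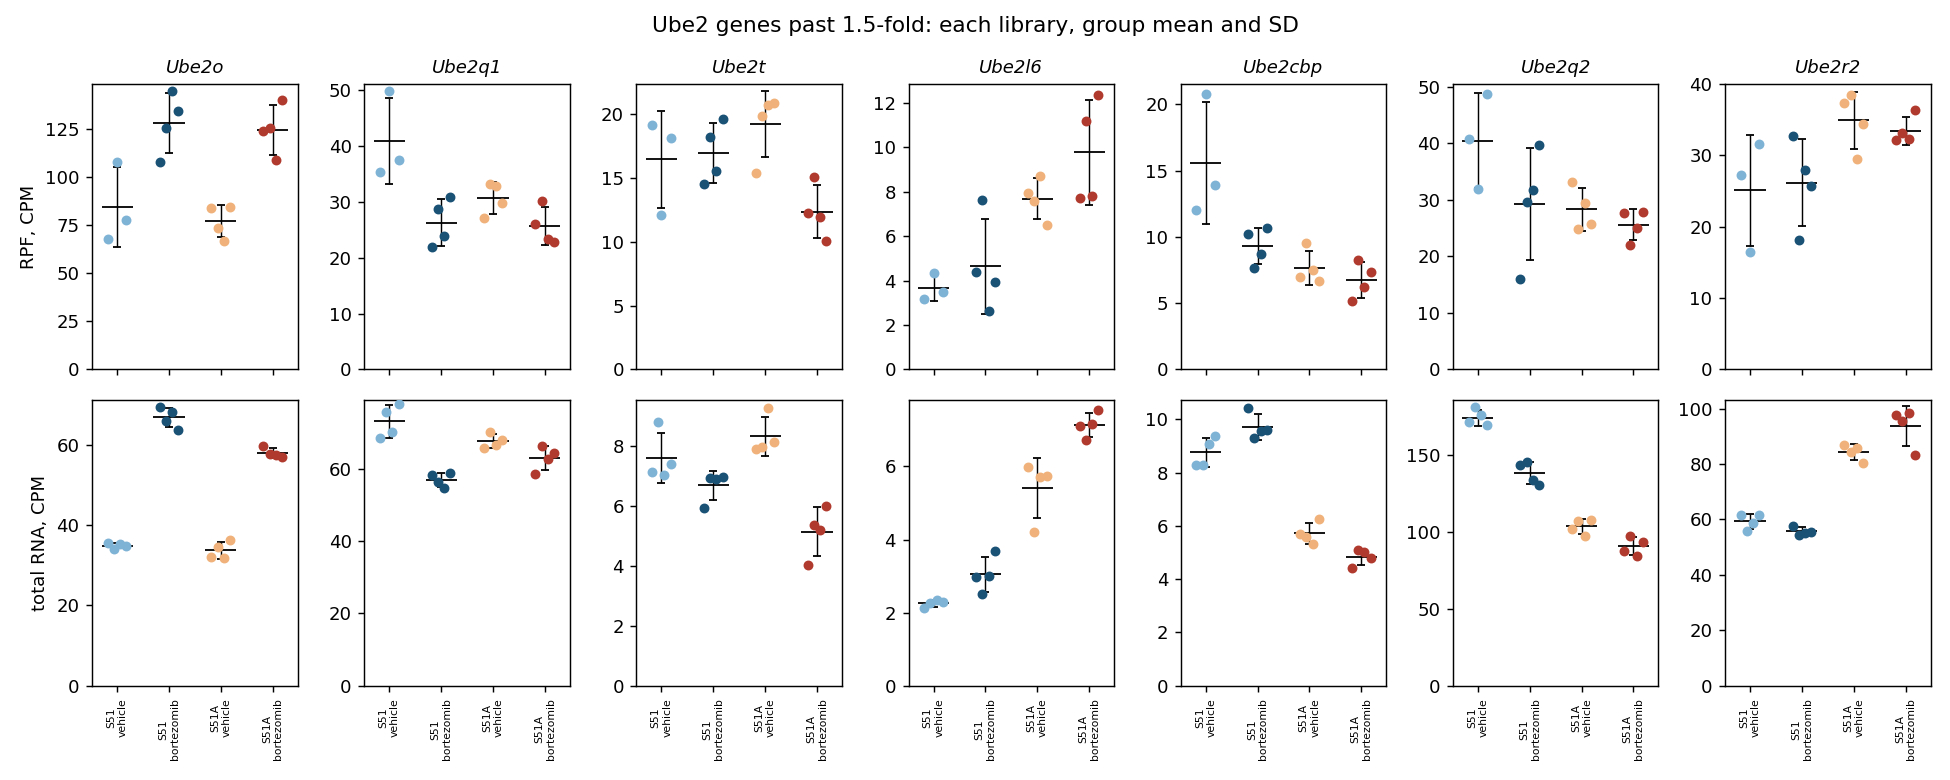
CPM in every library, for RPF and total RNA, of the 7 members that passed with a fold over 1.5 in any comparison; each point is 1 library, the bar the group mean and the error bar the SD. Ube2o separated by treatment in both genotypes and Ube2l6 by genotype.

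The ratio of RPF to total RNA asks whether translation changed apart from the transcript. In S51 under bortezomib 1 of 32 members passed in TE, where 9.59% of all genes did, and 6 had an unadjusted p under 0.05. That member was Ube2cbp, whose RPF to total RNA ratio was 1.45, 2.50 and 1.53 under vehicle and 0.976, 0.823, 0.909 and 1.11 under bortezomib. The log2 change was −0.83 (SE 0.22, adjusted p = 0.0111), on at most 56 RPF counts in any library. Without S51 vehicle replicate 2 the change was −0.64 and did not pass (adjusted p = 0.0837). At the other end was Ube2w, which tags N-termini, at 0.48 (adjusted p = 0.0765). The count was 3 without vehicle replicate 1, 6 without vehicle replicate 3 and 0 without bortezomib replicate 3. Shares of all genes are not given for those fits. In S51A 0 passed, against 1.34% of genes, and 1 had an unadjusted p under 0.05; the ends were Ube2r2 at −0.22 and Ube2f at 0.39. RPF and total RNA moved in the same direction in 17 of 32 members in S51 and 26 of 32 in S51A, where 74.7% and 82.1% of all genes did. The S51 count without S51 vehicle replicate 2 was 24 of 32, against 75.6%. The 4 members called in both kinds of library in S51, and the 3 in S51A, had the same sign in both.

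The second comparison asks how S51A cells differed from S51 cells. Under vehicle 6 of 32 members passed in RPF, 3 higher and 3 lower in S51A, against 28.6% of all genes (14.8% higher, 13.8% lower), and 2 at a fold over 1.5, against 15.8% (3 without S51 vehicle replicate 2, against 13.6%). Ube2l6, Ube2d2a and Ube2g1 were higher, and Ube2cbp and Ube2q2 were among the lower. Under bortezomib 5 passed, 3 higher (Ube2l6, Ube2d2a and Ube2m) and 2 lower (Ube2e1 and Ube2s), against 31.5% of all genes (16.6% higher, 14.9% lower), and 1 at a fold over 1.5, against 17.7% (1 without S51 vehicle replicate 2, against 18.9%). Without S51 vehicle replicate 2, 8 passed under vehicle (2 higher, 6 lower), against 28.7% of all genes (15.2% higher, 13.5% lower). Under bortezomib 10 passed in that fit (7 higher, 3 lower), against 39.8% (20.7% higher, 19.1% lower). The vehicle count was 11 without S51 vehicle replicate 3 and 3 without S51A vehicle replicate 2. The bortezomib count fell to between 1 and 3 without S51 replicate 1, 2 or 4 or any 1 of the 4 S51A bortezomib libraries. For those fits no shares of all genes are given, and nothing is read from their counts. In total RNA 23 members passed under vehicle (7 higher, 16 lower), against 63.8% of genes (31.4% higher, 32.4% lower), and 19 under bortezomib (10 higher, 9 lower), against 65.7% (33.3% higher, 32.4% lower). At a fold over 1.5 these were 3 and 4, against 17.5% and 20% of genes. The vehicle and bortezomib comparisons share no library, while each shares libraries with the comparisons by treatment above.

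Ube2l6, which carries the interferon-induced modifier ISG15, was higher in S51A under both treatments. Its reads were few, with 260 RPF counts over all libraries and at most 36 in any. Its RPF was 3.19, 4.35 and 3.48 CPM in S51 vehicle and 7.94, 7.60, 8.71 and 6.49 CPM in S51A vehicle, with no overlap (log2 difference 1.05, SE 0.30, adjusted p = 0.0108, and 1.15, adjusted p = 0.00985, without replicate 2). Under bortezomib it was 4.37, 7.65, 2.65 and 3.92 CPM in S51 and 7.73, 11.2, 7.80 and 12.4 CPM in S51A, where the highest S51 library lay just below the lowest of S51A (1.22, SE 0.30, adjusted p = 0.0039). Total RNA of Ube2l6 was 2.11, 2.27, 2.34 and 2.30 CPM in S51 vehicle and 5.98, 4.20, 5.72 and 5.74 CPM in S51A vehicle, a difference of 1.26 (adjusted p = 1.3e-08), and the difference under bortezomib was 1.23 (adjusted p = 4.97e-09). It also rose under bortezomib in total RNA, by 0.43 (adjusted p = 0.0159) in S51 and 0.40 (adjusted p = 0.00395) in S51A. The S51 call was lost without bortezomib replicate 4 (0.32, adjusted p = 0.0799) and with library sizes alone (0.27, adjusted p = 0.111). Of the 7 ISG15 and interferon genes tested in total RNA, 4 were higher and 2 lower in S51A under vehicle, where 31.4% and 32.4% of all genes were. Isg15 itself was at or below 1.95 CPM in every RPF library.

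Ube2cbp was lower in S51A. Its RPF was 12, 20.8 and 13.9 CPM in S51 vehicle and 7.01, 9.50, 7.47 and 6.69 CPM in S51A vehicle, with no overlap (log2 difference −0.97, SE 0.22, adjusted p = 0.00236, and −0.75, adjusted p = 0.0154, without replicate 2). Total RNA was lower by −0.62 under vehicle (adjusted p = 1.17e-06) and −1.01 under bortezomib (adjusted p = 5.13e-10), where S51A libraries held 4.42 to 5.09 CPM and S51 libraries 9.30 to 10.4 CPM.

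Ube2q2, the paralogue of Ube2q1, was lower in S51A total RNA, with 172, 181, 176 and 169 CPM in S51 vehicle and 102, 107, 97.3 and 108 CPM in S51A vehicle (log2 difference −0.75, adjusted p = 6.03e-13). Under bortezomib the values were 144, 145, 134 and 131 CPM and 87.3, 97.5, 84.6 and 93.6 CPM (−0.61, adjusted p = 3.41e-11). Its RPF under vehicle was 40.7, 31.9 and 48.8 CPM in S51 and 33.2, 24.9, 29.5 and 25.8 CPM in S51A, which overlapped (−0.57, SE 0.19, adjusted p = 0.027, a call kept with 11 of the 15 RPF libraries left out in turn; without S51 vehicle replicate 2 it was −0.71, adjusted p = 0.00106). Within each genotype Ube2q2 total RNA fell under bortezomib, by 0.33 in S51 (adjusted p = 6.95e-07) and 0.19 in S51A (adjusted p = 0.00125).

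Ube2r2, a cullin-ligase E2 and close relative of Cdc34, differed the other way. Its total RNA was 61.5, 55.9, 58.7 and 61.4 CPM in S51 vehicle and 87.0, 84.4, 85.9 and 80.4 CPM in S51A vehicle (log2 difference 0.51, adjusted p = 2.31e-09). Under bortezomib it was 57.7, 54.5, 55.2 and 55.4 CPM and 97.6, 95.5, 98.5 and 83.3 CPM (0.75, adjusted p = 1.99e-12). RPF of Ube2r2 was 27.3, 16.4 and 31.6 CPM in S51 vehicle and 37.4, 38.4, 29.5 and 34.5 CPM in S51A vehicle, overlapping, and was called in neither treatment.

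Smaller RPF differences were called for Ube2d2a, at 101, 56.6 and 102 CPM in S51 vehicle against 117, 124, 120 and 133 CPM in S51A vehicle (log2 difference 0.50, adjusted p = 0.0154, and 0.29, adjusted p = 0.0273, without replicate 2). Under bortezomib Ube2d2a differed by 0.39 (adjusted p = 0.0434). Ube2g1, an E2 of K48 chains, was 0.50 higher under vehicle (adjusted p = 0.0253), which became 0.29 (adjusted p = 0.0885) without replicate 2. Under bortezomib Ube2m differed by 0.26 (adjusted p = 0.0357), Ube2e1 by −0.30 (adjusted p = 0.0336) and Ube2s by −0.26 (adjusted p = 0.0314). With each of the 15 RPF libraries left out in turn, the call was kept 15 times for Ube2d2a under vehicle, 6 times for Ube2d2a under bortezomib, 12 times for Ube2g1, 8 times for Ube2m, 11 times for Ube2e1 and 9 times for Ube2s. In total RNA Ube2k, which builds K48 chains, was lower in S51A by −0.43 (adjusted p = 7.22e-08) and −0.35 (adjusted p = 1.35e-06) under vehicle and bortezomib, and Ube2g1 higher by 0.41 (adjusted p = 3.9e-06) and 0.26 (adjusted p = 0.000922). In TE 0 members passed under vehicle, where 0.106% of genes did and 5 members had an unadjusted p under 0.05, and 0 under bortezomib, where 6.39% of genes did and 6 members had an unadjusted p under 0.05. Without S51 vehicle replicate 2, 1 passed under bortezomib, Ube2d2a at 0.36 (adjusted p = 0.00519), where 10.1% of genes did. Also, 1 passed under bortezomib without S51 bortezomib replicate 3, and 5 under vehicle without S51 vehicle replicate 3. Shares of all genes are not given for these last fits.

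**Figure D5:**
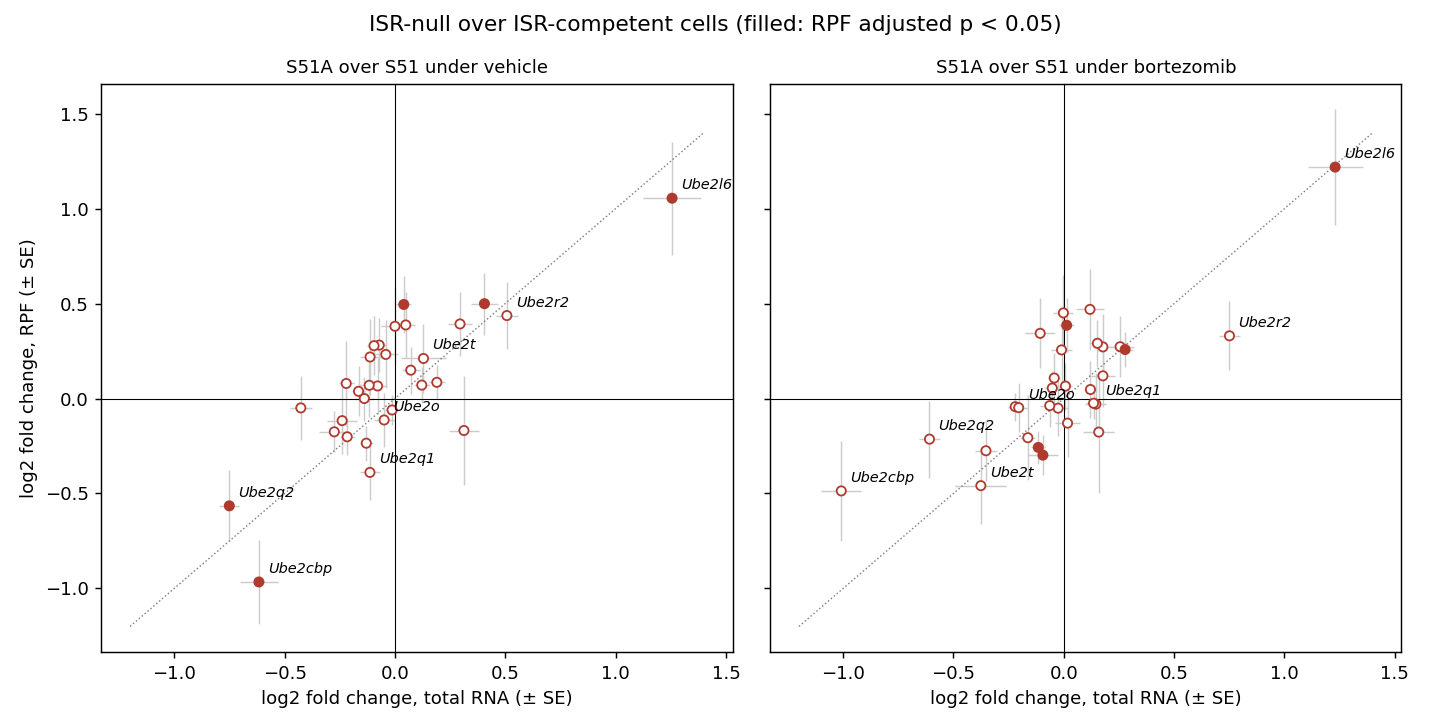
Log2 difference S51A over S51 in RPF (vertical axis) against total RNA (horizontal axis) for 31 of the 32 tested members, with standard errors, under vehicle and under bortezomib; filled points have an adjusted p under 0.05 in RPF, and the dotted line marks equal differences. Ube2l6 was highest under both treatments and both kinds of library.

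The third comparison asks whether the response to bortezomib itself differed between genotypes. In RPF 0 of 32 members passed (edgeR), where 2.35% of all genes did, and 1 had an unadjusted p under 0.05. In TE 0 passed, where 1.7% of all genes did, and 3 had an unadjusted p under 0.05. The ends were Ube2t at −0.67 and Ube2cbp at 0.48 in RPF. In TE they were Ube2n at −0.43 and Ube2cbp at 0.85, and all had an adjusted p over the threshold. Without S51 vehicle replicate 2 the Ube2cbp values were 0.26 and 0.65. In that fit 0 members passed in RPF or TE, where 5.02% and 2.7% of all genes did. In total RNA 10 members passed, 7 with a more positive and 3 with a more negative response in S51A, against 21.6% of all genes (9.58% and 12%). The 3 were Ube2t, Ube2cbp and Ube2c, and the 7 included Ube2l3, Ube2m, Ube2n, Ube2q1, Ube2r2 and Ube2v1. Without S51A bortezomib replicate 1 of total RNA 6 passed, with the share of all genes in that fit not given. Ube2n had the opposite sign in the 2 genotypes, at −0.13 in S51 (adjusted p = 0.000797) and 0.09 in S51A (adjusted p = 0.016), with a difference of 0.22 (adjusted p = 0.000827). With library sizes alone its S51A value was −0.03. Ube2c fell by 0.16 on the log2 scale in S51A (adjusted p = 0.000128), from a mean of 247 to 221 CPM, was not called in S51, and its responses differed by −0.21 (adjusted p = 0.00186).

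Ube2c is a mitotic gene, and the other mitotic genes were counted beside it. Of 18 tested in total RNA, 9 were higher and 5 lower under bortezomib in S51, where 29.7% and 30.2% of all genes were, and 0 were higher and 16 lower in S51A, against 27.5% and 28.9%. In RPF 4 were higher and 2 lower in S51, against 14.8% and 16% of all genes, and 0 were higher and 8 lower in S51A, against 9.25% and 11.4%. The response was more negative in S51A for 16 of the 18 in total RNA, against 12% of all genes. In RPF it was more negative for 5, against 1.04%. Without S51 vehicle replicate 2, 4 were higher and 3 lower in S51 RPF, against 15% and 15.1% of all genes. In S51A 0 were higher and 13 lower in that fit, against 14.5% and 16.1%. The response was then more negative for 11, against 2.54%. Of 17 APC/C genes tested, which Ube2c and Ube2s serve, 2 were higher and 4 lower in S51 RPF and 1 higher and 2 lower in S51A, beside the same shares of all genes; without that library they were 2 and 5, and 1 and 3. The APC/C inhibitor Fbxo5 had RPF changes of −0.80 in S51 and −1.70 in S51A, and −0.79 and −1.69 without the library. Shares of cells in mitosis were not measured, and their part in these values was not tested.

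The partners of the other members were counted in the same way in RPF under bortezomib, where 30.8% of all genes passed in S51 and 20.6% in S51A. Most lists were small enough that a gene or 2 separates them from those shares, and nothing is read from their counts. Of 9 ubiquitin and ubiquitin-like genes tested, 2 were higher and 2 lower in S51 and 3 higher and 2 lower in S51A. Of 8 E1 enzymes 3 were higher in S51 and 1 in S51A, with Uba1, the main ubiquitin E1, at 0.46 and 0.19. Of 9 ERAD genes, partners of Ube2g2, Ube2j1 and Ube2j2, 4 were higher and 1 lower in S51 and 3 higher and 0 lower in S51A, with the ligase Syvn1 at 0.78 and 0.75. Of 11 CTLH genes, partners of Ube2h, 3 were higher and 2 lower in S51 and 1 higher and 0 lower in S51A, with Ypel5 at 1.55 and 1.21. Of 12 neddylation genes 1 was higher in S51 and 0 in S51A, of 5 SUMO genes 2 were higher and 1 lower in S51 and 1 higher in S51A, and of 7 DNA damage ligases 2 were higher in S51 and 0 in S51A. Of 7 other E2-like genes 1 was higher in each genotype. These were Birc6, a giant E2 and E3 in one chain, at 0.70 in S51 (0.17 in S51A, not called), and Cdc34 at 0.46 in S51A (adjusted p = 0.0129).

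The S51 counts of these lists without S51 vehicle replicate 2, higher and lower, were 2 and 3 for ubiquitin genes, 2 and 0 for E1 enzymes, 4 and 2 for ERAD, 3 and 2 for CTLH, 0 and 0 for neddylation, 2 and 0 for SUMO, 2 and 0 for DNA damage, and 1 and 0 for other E2-like genes, where 30.1% of all genes passed. In S51A they were 4 and 2, 1 and 0, 3 and 0, 1 and 1, 2 and 0, 1 and 0, 0 and 1, and 1 and 0 in the same order, where 30.6% did. The S51 changes were then 0.45 for Uba1, 1.04 for Syvn1, 1.36 for Ypel5 and 0.59 for Birc6.

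RefSeq promoter windows of mm10, from 250 bases before to 50 after each start, matched 30 of the 37 members; Ube2d2a, Ube2e3, Ube2g2, Ube2o, Ube2v2 and Ube2w were among those not matched. Motifs were searched on both strands, with overlap allowed. GAANNTTC, the heat shock element, was in 0 of the 30 (9.04% of all genes), and TGATGNAA, an ATF4 element, in 0 (4.51%). TGANNNNGC, the core of the antioxidant response element, was in 17 (56.7%, against 45.0%). TTTGAA or TTCGAA, the cell-cycle element CHR, was in 5 (16.7%, against 21.7%), among them both APC/C enzymes, Ube2c and Ube2s, with Ube2d2b, Ube2f and Ube2z. Of the members that passed at a fold over 1.5, Ube2q2 had an antioxidant core, and none of the matched ones had a CHR.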

How the data were processed

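RPF and total RNA were counted per gene in S51 and S51A cells under vehicle or bortezomib. The deposited values are whole-number read counts, which the authors made by trimming reads with the FastX toolkit, aligning them to mm10 with bowtie2 and counting with plastid; the submitters' processing notes also name featureCounts and DESeq2. RPF counts cover the coding sequence without its first and last codons, and the column names state that rRNA was removed, repeats masked and duplicates marked. Versions of these tools, and how marked duplicates were treated in counting, are not given in the sources used here.

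Columns were assigned to samples by the note on exchanged titles. Counts were analysed as deposited with edgeR 4.0.16 in R 4.3.3: filterByExpr, TMM scaling, and a quasi-likelihood test with 1 coefficient per group over all groups (15 RPF libraries, 16 total RNA libraries). TE was tested as the interaction of library kind and group in 1 model over all 31 libraries, on the 9457 genes that passed in RPF. Benjamini-Hochberg adjustment ran over all genes tested, and a member passed at an adjusted p under 0.05. The log2 changes are those of the edgeR fit with its default prior count. A prior count of 2 was used only for the log CPM behind correlations between libraries. Nothing in the labels says that libraries of a group came from separate cultures, so p-values measure the spread between these samples. Values in every library are given for members that passed with a fold over 1.5 in any comparison, beside the members at the ends of each comparison. The members, gene lists and motifs were chosen with earlier results of these data known. Values of some single genes, 1 member among them, are not reported here, though counts over members include it. Scripts were tested on simulated counts, with genes changed in S51 bortezomib and a spread that was set, not estimated from these libraries. Of genes changed 1.5-fold, 26.6% were called in RPF, 15.3% in TE and 91% in total RNA. At 2-fold these shares were 82.8%, 78.1% and 95%. Alternatives were RLE scaling, library sizes alone, DESeq2 1.42.0, 2 other count filters, stricter fold rules, fits of only the groups compared, a replicate or lysate block, a ratio of means for TE, and leaving out each library in turn.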

Additional observations from a re-analysis of the deposited data

Results flagged for a closer look

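Of 49 groups of 4 libraries examined for a library far from the rest, over the members named with values in every library, 2 held one, where chance gives about 1 in 20. Ube2l6 total RNA in S51A vehicle replicate 2 was 4.20 CPM, below 5.72 to 5.98 CPM in the other 3. Ube2t total RNA in S51 bortezomib replicate 1 was 5.95 CPM, below 6.90 to 6.96 CPM in the other 3.

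The response to bortezomib differed between genotypes in total RNA for 10 of 32 members by the interaction term, where 21.6% of all genes did. At a fold over 1.5 there were 0, against 2.09% of genes. Of the 10, 9 are given here, each value being the S51A response minus the S51 response on the log2 scale (edgeR, Benjamini-Hochberg adjusted over all genes). Ube2t was at −0.51 (adjusted p = 0.0215), Ube2cbp at −0.39 (adjusted p = 0.027) and Ube2c at −0.21 (adjusted p = 0.00186). Ube2q1 was at 0.26 (adjusted p = 0.00728), Ube2r2 at 0.24 (adjusted p = 0.0129), Ube2n at 0.22 (adjusted p = 0.000827) and Ube2l3 at 0.17 (adjusted p = 0.00614). Ube2m was at 0.16 (adjusted p = 0.0321) and Ube2v1 at 0.16 (adjusted p = 0.0135). With each of the 16 total RNA libraries left out in turn, the difference was called 10 times for Ube2m (adjusted p up to 0.0761), 12 times for Ube2cbp, 15 times for Ube2t and 16 times for the other 6.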

How the results depend on the processing

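Counts of members passing are given in the order bortezomib in S51, bortezomib in S51A, genotype under vehicle, genotype under bortezomib, with 5, 3, 6 and 5 in RPF and 17, 20, 23 and 19 in total RNA as reported. A fold over 1.5 left 3, 2, 2 and 1 in RPF and 1, 2, 3 and 4 in total RNA, with 0 of the 10 response differences in total RNA; a fold over 2 left 0, 0, 1 and 2 in total RNA, and 0 response differences. Fitting only the groups compared gave 2, 8, 3 and 9 in RPF and 1 in TE for genotype under bortezomib. A filter of 10 counts in all RPF libraries gave 3 in RPF for bortezomib in S51. Library sizes alone gave 3 in RPF for genotype under bortezomib, where 1364 of all 9457 genes were higher and 1680 lower. In TE, DESeq2 gave 2 for bortezomib in S51 and 1 for each genotype comparison. Of all 9457 genes it called 396 higher and 868 lower, 61 and 32 under vehicle, and 632 and 218 under bortezomib. Library sizes alone gave 6 for bortezomib in S51, where 1141 of all genes were higher and 398 lower. For genotype under bortezomib they gave 1, where 320 of all genes were higher and 405 lower. Shares of all genes are not set beside the other counts in this section, and nothing is read from those counts. Leaving out each library in turn gave 3 to 9, 3 to 8, 3 to 11 and 1 to 10 in RPF, 14 to 17, 18 to 21, 20 to 23 and 18 to 20 in total RNA with 6 to 10 response differences, and 0 to 6, 0 to 0, 0 to 5 and 0 to 1 in TE. With library sizes alone the total RNA changes of Ube2j1 (−0.0541), Ube2h (−0.0217) and Ube2d2a (−0.0470) in S51 and of Ube2n (−0.0276) and Ube2d2a (−0.0354) in S51A turned negative, as the median of all genes did. Over the values of called members, all alternatives together, library sizes alone included, kept the result in 613 cases and lost the call in 43. The 5 that turned negative are beside these. Kept means the same direction and side of the threshold, save for the ratio of means for TE, which has no test. Leaving out a library kept the call in 1608 cases and lost it in 132. The causes were not tested. Replicate numbers were not used as pairs: the labels tie them to no shared culture or day, and correlations of deviations, from −0.158 to 0.261 over 21 RPF pairs and 0.002 to 0.191 over 24 total RNA pairs, exceeded 0.1 in 3 and 8 pairs; with the number as a block 6, 3, 7 and 5 members passed in RPF and 17, 21, 23 and 20 in total RNA, and the lysate block left TE at 1 for bortezomib in S51 and 0 otherwise. On average 11 of 15 RPF and 15 of 16 total RNA libraries correlated best with libraries of their own number, a hint from the data and not from the design. The ratio of means for TE has no test and gives no count, and the fits of only the groups compared give no response difference. RPF depth, 1038826 counts at the lowest, limits small changes.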
